A study of Rattus norvegicus with 18 samples.

Results

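The 35 genes described here serve antigen presentation and the interferon response in whole kidney of male rats. They were chosen by name, with earlier results of these data known. Of them 6 belong to the class II branch of antigen presentation and 9 to class I loading and the immunoproteasome. Another 5 are interferon-related transcription factors and 15 are interferon-stimulated effectors. All 35 were on the array, out of 14218 genes with a probe set that names 1 gene. Each was read from its brightest probe set, and all 35 were bright enough to be among the 10483 genes tested.

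The study compared kidneys of Dahl S rats (SS/Jr), a salt-sensitive strain that develops hypertension and proteinuria, with those of S.SHR(2), a congenic made by crossing SHR/NHsd with SS/Jr rats and called renal protective by its depositors. By the usual naming of such strains, S.SHR(2) carries chromosome 2 sequence of the hypertensive SHR rat on the Dahl S background, so both groups share that background, and the extent of the donor segment is not stated in the labels. There were 9 rats of each strain and 1 array per rat. The design text names ages of 4, 12 and 20 weeks with 3 rats per strain at each, taken at random from animals tested for protein in urine, but an age is labelled for 2 of the 18 rats, Dahl S replicate 2 (4 weeks) and Dahl S replicate 4 (12 weeks), both on a diet of 0.3% NaCl; the diet of the other 16 is not labelled. The arrays were deposited in 3 consecutive runs of 6, each with 3 Dahl S rats (replicates 1 to 3, 4 to 6 and 7 to 9) followed by 3 S.SHR(2) rats with the same numbers, and these runs are called deposit blocks below. Dahl S replicate 2 lies in the first block and Dahl S replicate 4 in the second. A block stands for no labelled condition: age, array run and any other difference between blocks cannot be told apart.

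Class II molecules, the RT1-D and RT1-B chains in the rat, hold peptides taken up from outside the cell and show them to helper T cells, with Cd74 as the invariant chain that guards the groove until it is loaded. Class I molecules show peptides from inside the cell, which the immunoproteasome cuts and the TAP pump carries to the loading complex. Interferon gamma raises both branches through Irf1 and Ciita, while type I interferons act through Stat2 and Irf9 on a broad set of antiviral genes; in kidney, macrophages and dendritic cells carry most class II, and tubule and endothelial cells can be induced to carry it.

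The values were the deposited signal intensities, scaled by the depositors so that the arrays had nearly the same trimmed mean (150.046 on the lowest array and 150.054 on the highest). The third block stood apart from the other 2 over all genes: on the first principal component, which held 36.1% of the variance, its 6 arrays scored 19.7 to 24.7 and the other 12 scored -27.5 to -1.13. The ratio of 3′ to 5′ signal of the Gapdh control, a measure of RNA integrity, was 1.19 to 2.51 in the first block, 1.28 to 2.04 in the second and 1.5 to 1.6 in the third. That of the actin control was 2.22 to 6.83, 3.14 to 5.88 and 2.27 to 3.0, so the third block lay wholly below the second by this measure; its part in the results was not tested. Pairs of arrays correlated at 0.942 to 0.986. All 12 kidney epithelial markers on the array passed the brightness filter. Their summed intensity as deposited was 26600.1 to 31206 in the third block, below all 12 rats of the other blocks (32832 to 36771). Bright markers weigh most in it. In Dahl S, mean Slc34a1 was 7801 in the first block and 5181 in the third, and mean Umod 6632 and 5689. After normalization Slc34a1 was not called (-0.17 in Dahl S, -0.20 in S.SHR(2)) and Umod was called higher (0.20 and 0.26). The lower sum was thus not carried over to the normalized values of these markers. Between the third and first blocks 2 of the 12 were higher and 3 lower in each strain, among them the thiazide-sensitive transporter gene Slc12a3 at 0.78 in Dahl S and 0.76 in S.SHR(2), the podocyte gene Podxl at -0.75 and -0.74 and the collecting duct water channel gene Aqp2 at -0.60 and -0.77 on the log2 scale. Their part in the results was not tested.

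**Figure D1:**
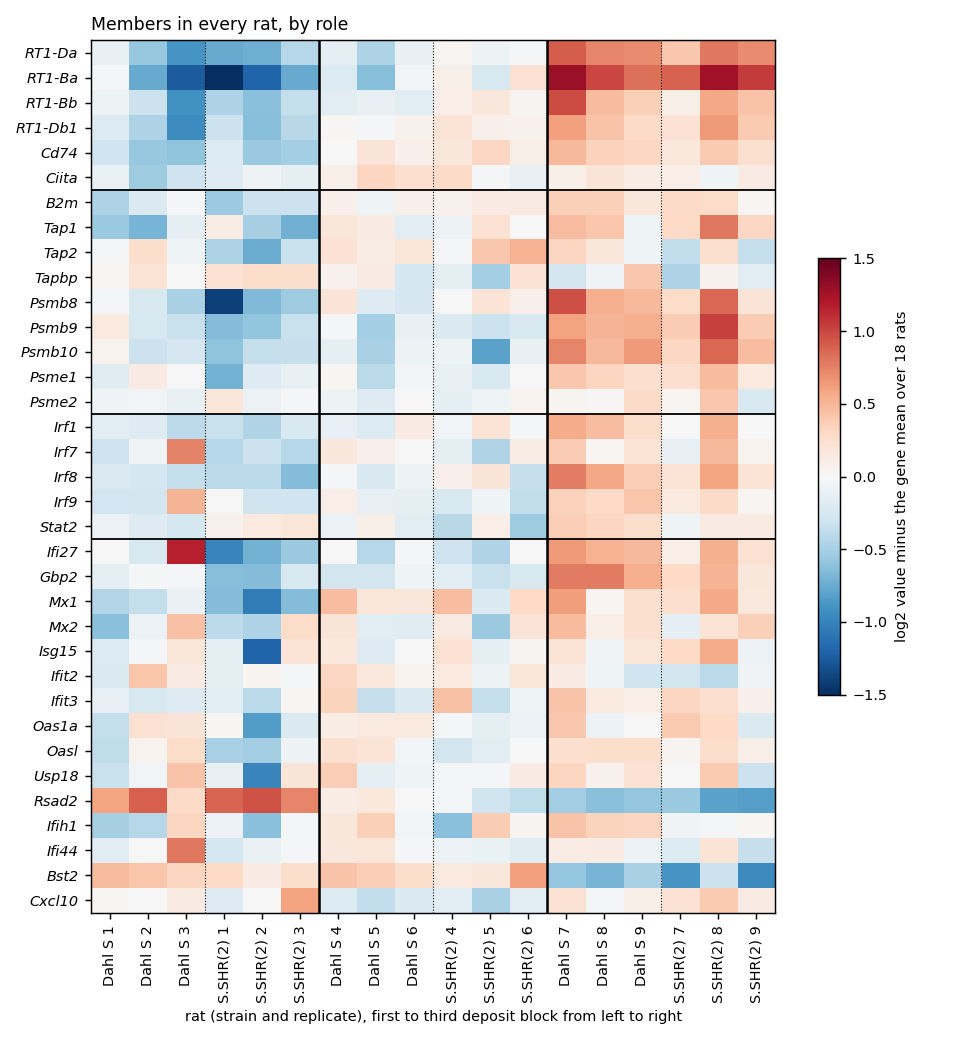
Log2 value of each of the 35 genes in each of the 18 rats, minus the gene's mean over the 18 rats, on a colour scale from -1.5 (blue) to 1.5 (red). Rows are grouped by role, heavy vertical lines separate the deposit blocks and dotted lines the strains. The class II genes are red in all 6 rats of the third block, except Ciita in S.SHR(2) replicate 8, which lies below its mean. Rsad2 and Bst2 are blue in that block, and single rats stand out, such as Dahl S replicate 3 for Ifi27.

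Between the first and the third block, much of the antigen presentation machinery was higher in both strains, while 2 interferon-stimulated effectors were lower in both. In Dahl S, 18 of the 35 genes differed between these blocks at an adjusted p under 0.05 (limma, Benjamini-Hochberg over 10483 genes; differences are on the log2(value + 16) scale after quantile normalization, which understates those of dim genes), 16 higher and 2 lower. Over all genes tested 22.9% were called in this comparison, 11.9% higher and 11% lower. In S.SHR(2), 19 of the 35 were called, 17 higher and 2 lower, against 28.7% of all genes, 15.7% higher and 13% lower. Over the 35 genes the log2 difference had a median of 0.41 (Dahl S) and 0.52 (S.SHR(2)), and over all genes one of 0.02 in both.

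The genes called were largely shared by the strains. Higher in both were 14 genes (RT1-Da, RT1-Ba, RT1-Bb, RT1-Db1, Cd74, B2m, Tap1, Psmb8, Psmb9, Psmb10, Irf1, Irf8, Gbp2 and Mx1), where 7.96% of all genes were called higher in both; lower in both were Rsad2 and Bst2, where the background was 6.87%. Ciita and Stat2 were called in Dahl S but not in S.SHR(2), and Psme1, Ifi27 and Oasl in S.SHR(2) but not in Dahl S. None of these 5 differences between strains was itself called: no member and no other gene passed the test of strain by block (0% of 10483 genes in limma), and 3 members, Stat2, Ifi27 and Rsad2, had an unadjusted p under 0.05 in it. The other 14 genes were called in neither strain.

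By deposited intensity, all 6 rats of the third block lay above all 6 of the first for 13 of the 35 genes, where 8.59% of all genes did so, and below them for 2, Rsad2 and Bst2, where 8.43% did. Among the genes called, those higher were 16 and 17 of the 35, a larger share than over all genes. Those lower were 2 of the 35 in each strain, a smaller one. The 35 genes were chosen with earlier results of these data known, so this comparison of shares is a description only.

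**Figure D2:**
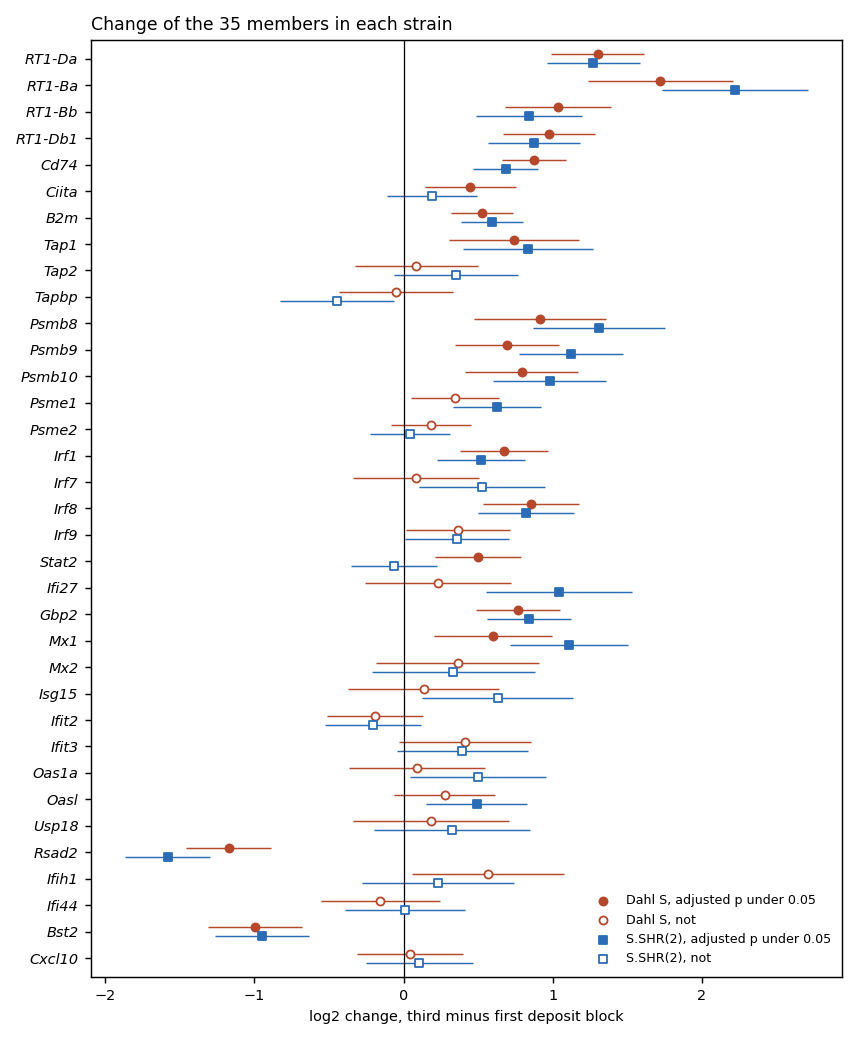
Log2 difference between the third and first deposit blocks for the 35 genes in Dahl S (circles) and S.SHR(2) (squares), with 95% confidence intervals from the limma fit; filled symbols have an adjusted p under 0.05. RT1-Ba lies farthest to the right in both strains (1.72 and 2.22), and Rsad2 farthest to the left (-1.17 and -1.58).

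Of the 4 groups, class II had the largest share of genes called. All 6 genes were higher in the third than in the first block in Dahl S, with a median log2 difference of 1.01. In S.SHR(2) 5 of the 6 were higher, with a median of 0.86, Ciita being the exception. Over all genes 11.9% were called higher in Dahl S and 15.7% in S.SHR(2). Between the second and first blocks, 5 of the 6 were called higher in S.SHR(2), where 5.68% of all genes were, and 3 of the 6 in Dahl S (RT1-Db1, Cd74 and Ciita), where 5.78% were; the test of strain by block called none of the 6 for this step (smallest adjusted p = 0.85, limma). Some of these calls were lost with 1 rat left out: RT1-Bb in S.SHR(2) without S.SHR(2) replicates 1, 2, 4, 5 or 6, RT1-Db1 in S.SHR(2) without S.SHR(2) replicates 2 or 4, RT1-Db1 in Dahl S without Dahl S replicates 3 or 6, and Ciita in Dahl S without Dahl S replicates 2, 5 or 6. Other settings lost calls too. The mean over probe sets lost RT1-Ba in S.SHR(2) and Ciita in Dahl S, and the fit without an intensity trend lost RT1-Bb in S.SHR(2). Leaving out the 2 arrays of highest Gapdh ratio lost RT1-Bb in S.SHR(2) and Ciita in Dahl S. Ciita in Dahl S was also lost without the third block. Across the 18 rats the 15 pairs of class II genes had a median Pearson correlation of 0.88 (range 0.48 to 0.98), given as a description, since the genes share the same arrays.

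The intensity of RT1-Ba in Dahl S rats was 737, 428 and 307 in the first block, 652, 479 and 725 in the second and 1728, 1508 and 1307 in the third. In S.SHR(2) rats it was 251, 317 and 429, then 802, 638 and 891, then 1485, 1895 and 1583. RT1-Ba, the alpha chain of the RT1-B class II molecule, was thus high in every rat of the third block, and no rat of the other blocks reached them. The log2 difference between the third and first blocks was 1.72 ± 0.23 (SE; adjusted p = 1.6e-05) in Dahl S and 2.22 ± 0.23 (adjusted p = 6.7e-07) in S.SHR(2), or 3.3-fold and 4.67-fold.

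For RT1-Da, Dahl S intensities were 1765, 1220 and 977 in the first block, 1758, 1332 and 1706 in the second and 3056, 2976 and 2803 in the third. The S.SHR(2) rats gave 1093, 1090.4 and 1363, then 1873, 1806 and 1889, then 2564, 3190.1 and 2866. RT1-Da is the alpha chain of the RT1-D molecule, and its 6 values in the third block again lay above all others. Its log2 difference was 1.30 ± 0.15 (SE; adjusted p = 1.9e-06) in Dahl S and 1.27 ± 0.15 (adjusted p = 2.6e-06) in S.SHR(2), or 2.47-fold and 2.42-fold.

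The beta chains differed by less. Dahl S rats had RT1-Bb intensities of 1392, 1125 and 766 in the first block, 1316, 1318 and 1263 in the second and 2501, 1986 and 1752 in the third. S.SHR(2) values by block were 1058, 928 and 1109, then 1526, 1653 and 1501, then 1616, 2255 and 1913. The first block spread widely within Dahl S, with replicate 3 the lowest rat, and the third block still lay above it in all 6 rats. The log2 difference of RT1-Bb was 1.04 ± 0.17 (SE; adjusted p = 0.00013) in Dahl S and 0.84 ± 0.17 (adjusted p = 0.00097) in S.SHR(2). The intensity of RT1-Db1 in Dahl S rats was 498, 412 and 299.6 in the first block, 602, 583 and 608 in the second and 883, 786 and 698 in the third. The same blocks of S.SHR(2) held 473, 369 and 428, then 672, 625.2 and 612, then 701, 957 and 779.8. Dahl S replicate 3 was again the lowest of the first block. The log2 difference of RT1-Db1 was 0.98 ± 0.15 (SE; adjusted p = 5.1e-05) in Dahl S and 0.88 ± 0.15 (adjusted p = 0.00017) in S.SHR(2).

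Cd74, the invariant chain, followed another course. For Cd74, Dahl S intensities were 2322, 1832 and 1787 in the first block, 2909, 3058 and 2914 in the second and 3290.5, 3344 and 3128 in the third. In S.SHR(2) rats it was 2308, 1843 and 1948, then 3063, 3471 and 3115, then 3140.4, 3584 and 3111. The second block overlapped the third, and both lay above every rat of the first. Its log2 difference between the second and first blocks was 0.58 ± 0.10 (SE; adjusted p = 0.00081) in Dahl S and 0.61 ± 0.10 (adjusted p = 0.00053) in S.SHR(2), and between the third and second 0.29 ± 0.10 (adjusted p = 0.056) and 0.07 ± 0.10 (adjusted p = 0.69). Between the third and first it was 0.87 ± 0.10 (SE; adjusted p = 2.7e-06) in Dahl S and 0.68 ± 0.10 (adjusted p = 5.4e-05) in S.SHR(2).

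Ciita, the transcriptional master switch of class II, was dim, at 44.3 to 85.7 over the Dahl S rats and 53.8 to 85.1 over the S.SHR(2) rats. Its log2 difference between the third and first blocks was 0.45 ± 0.15 (SE; adjusted p = 0.031) in Dahl S and 0.19 ± 0.15 (adjusted p = 0.35) in S.SHR(2). The Dahl S call was lost without Dahl S replicates 2, 3, 7, 8 or 9 in turn (adjusted p up to 0.15), and a second, dimmer probe set of Ciita gave -0.16 and -0.30, neither called. RT1-Ba and RT1-Db1 also had further probe sets bright enough to test, all with the same direction: 0.62 (adjusted p = 0.195) and 0.81 (adjusted p = 0.073) for 1 of RT1-Ba, 0.99 and 1.33, both called, for another, dimmer one, and 0.43 (adjusted p = 0.062) and 1.0 for that of RT1-Db1.

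**Figure D3:**
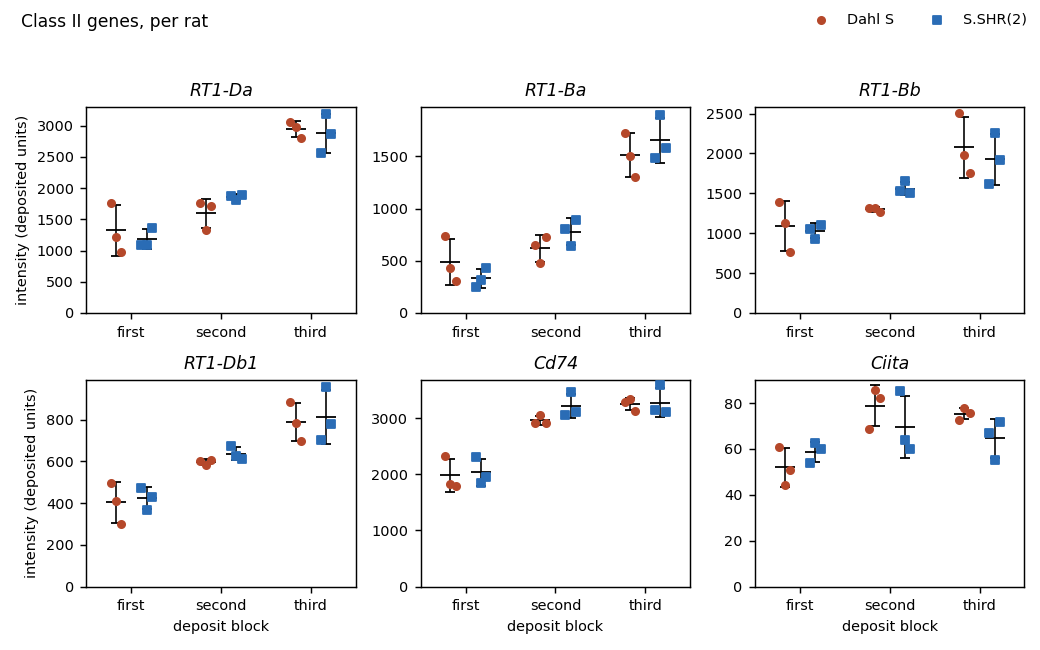
Deposited intensity of the 6 class II genes in each rat, by deposit block, with Dahl S as circles and S.SHR(2) as squares; bars show the mean and SD of 3 rats. RT1-Ba lies at 251 to 737 in the first block and 1307 to 1895 in the third, and Cd74 reaches its higher level in the second block already.

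The start of the class II promoters is shown because these 4 genes moved together. Sequences are from RefSeq on the GRCr8 build, read 5′ to 3′ on the gene's strand, with capitals marking the letters CTGATTGG (the Y box, bound by NF-Y) and TAGCAAC (here taken as the core of the X box, bound by RFX), searched on both strands of the 250 bases before the start. The letters were settled after these promoters had been looked at and other spellings tried.
RT1-Da (chr20:4515315-4515384, plus strand): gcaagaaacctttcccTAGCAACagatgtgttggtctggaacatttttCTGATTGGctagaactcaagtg
RT1-Ba (chr20:4576963-4577032, plus strand): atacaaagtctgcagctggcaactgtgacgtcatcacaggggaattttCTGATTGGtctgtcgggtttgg
RT1-Bb (chr20:4604161-4604230, minus strand): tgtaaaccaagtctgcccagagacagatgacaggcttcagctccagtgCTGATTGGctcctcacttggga
RT1-Db1 (chr20:4560224-4560293, minus strand): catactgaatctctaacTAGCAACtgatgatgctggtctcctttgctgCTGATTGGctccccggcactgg
The Y box letters were found in 5 of the 30 members whose promoter was in the table, these 4 and Irf8, and in 3.19% of all 33469 promoters. The X box letters were found in RT1-Da, RT1-Db1, Cd74 and Tap2, and in 2.88% of all promoters. Such a match describes the sequence and is not evidence of binding in these kidneys.

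A change in the number of cells of a type and a change in RNA per cell cannot be told apart in whole kidney. Macrophage markers moved with class II. Of 15 macrophage and myeloid markers tested, 11 were higher in the third than in the first block in Dahl S and 13 in S.SHR(2), none was lower, and the median log2 difference was 1.0 and 1.04; 2 more, Itgam and Cd163, were on the array but dim. The largest was Cybb, the NADPH oxidase subunit of phagocytes, at 2.76 and 2.68. The summed intensity of the 17 markers on the array was 3056 to 4219 in Dahl S and 2816 to 3453 in S.SHR(2) in the first block, 4992 to 5354 and 5003 to 5040.4 in the second, and 6464 to 7630.1 and 5169.7 to 7311 in the third. Over all genes 11.9% were called higher in Dahl S and 15.7% in S.SHR(2) between the third and first blocks. No marker was listed at 0 in any rat. The part of these cells in the class II result was not tested.

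Markers of other antigen-presenting and immune cells were mostly dim. Of 5 dendritic cell markers on the array 2 were bright enough to test, Itgax and Cd83. Both were higher in the third than in the first block in both strains. The summed intensity of all 5 was 124 to 184 in the first block and 228 to 343 in the third. Of 13 T and NK cell markers 5 were tested, of which 3 were higher in Dahl S and 4 in S.SHR(2), with the list's sum at 249 to 370 in the first block and 485.5 to 666 in the third. Of 4 B cell markers only Cd22 was tested and it was called in neither strain. Endothelial markers went the other way: 8 of 9 were lower in Dahl S (11% of all genes) and 6 of 9 in S.SHR(2) (13%), with medians of -0.63 and -0.49. The part of these cells in the results was not tested.

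In class I loading and the immunoproteasome, the catalytic subunits were higher in the third block while Tapbp and Psme2 were not called. Of the 9 genes, 5 were higher in the third than in the first block in Dahl S and 6 in S.SHR(2), and none was lower at the threshold; the median log2 difference was 0.53 and 0.63. Over all genes 11.9% were called higher in Dahl S and 15.7% in S.SHR(2). The 3 catalytic subunits that replace their constitutive counterparts in the immunoproteasome, Psmb8, Psmb9 and Psmb10, were higher in both strains.

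Dahl S rats had Psmb9 intensities of 166, 126 and 116 in the first block, 141, 99.8 and 136 in the second and 241, 222 and 225 in the third. The S.SHR(2) rats gave 86.3, 93.6 and 115, then 126, 114 and 122, then 195, 319.7 and 200.2. The first and second blocks overlapped, and all 6 rats of the third lay above both. Its log2 difference between the third and first blocks was 0.69 ± 0.17 (SE; adjusted p = 0.0045) in Dahl S and 1.12 ± 0.17 (adjusted p = 4.6e-05) in S.SHR(2), while between the second and first it was -0.07 and 0.27, neither called.

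The intensity of Psmb10 in Dahl S rats was 135, 101 and 107 in the first block, 112, 86.7 and 121 in the second and 232, 188 and 210.4 in the third. S.SHR(2) values by block were 75.6, 96 and 98.4, then 121, 65.6 and 116, then 158, 240.2 and 184. Psmb10 took the same course, with every rat of the third block above all 12 others. The log2 difference between the third and first blocks was 0.79 ± 0.18 (SE; adjusted p = 0.003) in Dahl S and 0.98 ± 0.18 (adjusted p = 0.00044) in S.SHR(2). For Psmb8, Dahl S intensities were 94.9, 82.2 and 65.5 in the first block, 109, 82.7 and 79.6 in the second and 212, 149 and 144 in the third. The same blocks of S.SHR(2) held 26.7, 56.2 and 63.7, then 97.1, 112 and 102, then 115, 182 and 113. S.SHR(2) replicate 1 was the lowest rat, and all 3 S.SHR(2) rats of the first block lay below the Dahl S rats of that block. The log2 difference of Psmb8 was 0.92 ± 0.21 (SE; adjusted p = 0.0034) in Dahl S and 1.31 ± 0.21 (adjusted p = 0.00012) in S.SHR(2).

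B2m, the light chain of every class I molecule, was among the brightest signals of the arrays and its value depended on the scaling. Dahl S rats had B2m intensities of 4084, 4718 and 5078 in the first block, 5559, 4766 and 5253 in the second and 4935, 5598 and 5023 in the third. In S.SHR(2) rats it was 3396, 4233 and 4426, then 5289, 5812 and 6033, then 5543, 5233 and 4753. In Dahl S the deposited intensities of the third and first blocks overlapped, and in S.SHR(2) they did not. After quantile normalization the log2 difference was 0.53 ± 0.10 (SE; adjusted p = 0.00058) in Dahl S and 0.59 ± 0.10 (adjusted p = 0.00017) in S.SHR(2). With the values as deposited it was 0.17 (adjusted p = 0.28) in Dahl S and 0.37 in S.SHR(2), and median centring of the arrays gave 0.19 (adjusted p = 0.26) in Dahl S. A second, dimmer probe set of B2m gave 0.90 in Dahl S and 1.02 in S.SHR(2), both called.

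Tap1, a subunit of the peptide pump, was at 44.8 to 85.9 over the 6 rats of the first block and 79.8 to 146 in the third. Its log2 difference was 0.74 ± 0.21 (SE; adjusted p = 0.013) in Dahl S and 0.83 ± 0.21 (adjusted p = 0.0049) in S.SHR(2), and the Dahl S call was lost without Dahl S replicates 2, 7 or 8 (adjusted p of 0.072, 0.071 and 0.056). Its partner Tap2 was called in 1 comparison only, the second against the first block in S.SHR(2), at 0.82 ± 0.20 (adjusted p = 0.011), a call lost without S.SHR(2) replicates 2 or 6 (values of 0.42 to 1.19 over all settings); between the third and first its values were 0.09 and 0.35. With estimated array weights, which count arrays that deviate more from their group over all genes for less, Tap2 was also lower in the third than in the second block in S.SHR(2), at -0.58 (adjusted p = 0.018). Psme1, the alpha subunit of the PA28 activator, gave 0.35 ± 0.14 (SE; adjusted p = 0.083) in Dahl S and 0.63 ± 0.14 (adjusted p = 0.0022) in S.SHR(2). Psme2, its beta subunit, gave 0.18 and 0.04, and Tapbp, the tapasin gene of the loading complex, -0.05 and -0.44, with no call in any comparison, but with array weights Tapbp was lower in S.SHR(2) at -0.62 (adjusted p = 0.0073) and without S.SHR(2) replicate 8 at -0.57 (adjusted p = 0.047).

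**Figure D4:**
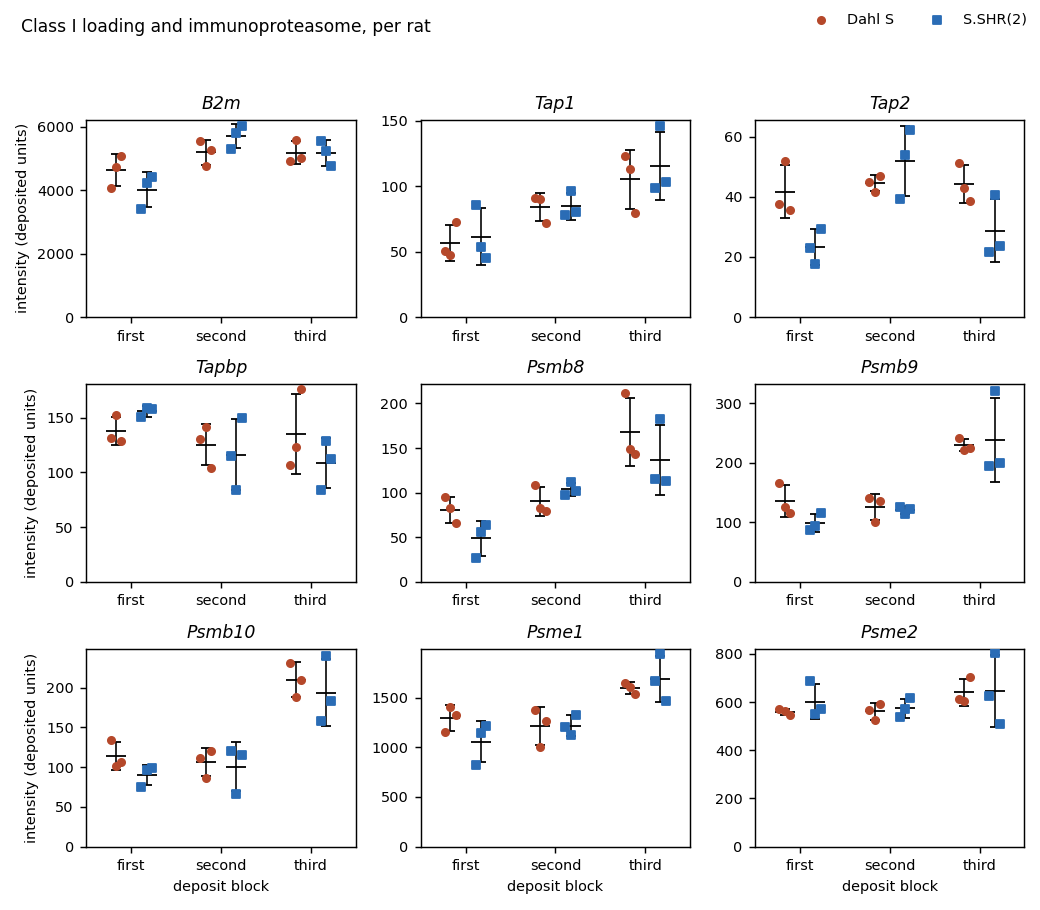
Deposited intensity of the 9 class I loading and immunoproteasome genes in each rat, by deposit block, with Dahl S as circles and S.SHR(2) as squares; bars show the mean and SD of 3 rats. Psmb9 and Psmb10 lie at one level in the first and second blocks and higher in all 6 rats of the third (195 to 320 and 158 to 240.2), while Psme2 and Tapbp overlap across blocks.

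Of the 5 transcription factors, 3 were higher in the third than in the first block in Dahl S (11.9% of all genes) and 2 in S.SHR(2) (15.7%). Irf1, an interferon gamma-induced activator, and Irf8, a factor of macrophages and dendritic cells, were higher in both strains, Stat2 was called in Dahl S, and Irf7 and Irf9, of the type I response, were called in neither. The intensity of Irf8 in Dahl S rats was 83.1, 82.5 and 74.9 in the first block, 93.6, 81.8 and 93.5 in the second and 186, 156 and 135 in the third. The S.SHR(2) rats gave 68, 70.5 and 59, then 106, 113 and 74.2, then 111, 152 and 115. Every rat of the third block but S.SHR(2) replicate 7 lay above every rat of the second, where S.SHR(2) replicate 5 reached 113. The log2 difference of Irf8 between the third and first blocks was 0.85 ± 0.15 (SE; adjusted p = 0.00037) in Dahl S and 0.82 ± 0.15 (adjusted p = 0.00049) in S.SHR(2).

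For Irf1, Dahl S intensities were 199, 192 and 167 in the first block, 198, 190.5 and 242 in the second and 341, 313 and 271 in the third. S.SHR(2) values by block were 171, 159 and 188, then 213, 255 and 217, then 219, 330.1 and 226. The S.SHR(2) rats of the third block were uneven, with replicate 8 far above replicates 7 and 9. The log2 difference of Irf1 was 0.68 ± 0.14 (SE; adjusted p = 0.0014) in Dahl S and 0.52 ± 0.14 (adjusted p = 0.009) in S.SHR(2), and without S.SHR(2) replicate 8 the S.SHR(2) value was 0.34 (adjusted p = 0.071).

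Dahl S rats had Stat2 intensities of 119, 112 and 104 in the first block, 115, 135 and 113 in the second and 175, 163 and 158 in the third. The same blocks of S.SHR(2) held 132, 144 and 148, then 92.5, 136 and 82.9, then 116, 135 and 140.2. Stat2, the partner of Irf9 in the type I interferon complex, was higher in the third block in Dahl S at 0.50 ± 0.14 (adjusted p = 0.012) and not called in S.SHR(2) at -0.07 ± 0.14 (adjusted p = 0.76); the test of that difference gave an adjusted p of 0.4. A second probe set of Stat2, of nearly the same brightness, gave 0.53 in Dahl S and 0.53 in S.SHR(2), both called, so the 2 probe sets disagree on S.SHR(2). Irf7 gave 0.08 ± 0.20 (SE; adjusted p = 0.81) in Dahl S and 0.53 ± 0.20 (adjusted p = 0.056) in S.SHR(2), and Irf9 0.37 ± 0.17 (SE; adjusted p = 0.13) in Dahl S and 0.36 ± 0.17 (adjusted p = 0.12) in S.SHR(2). With array weights Irf9 was higher in both strains, at 0.45 (adjusted p = 0.018) and 0.42 (adjusted p = 0.017). Without Dahl S replicate 3 Irf9 was at 0.63 (adjusted p = 0.003) and 0.36 (adjusted p = 0.037). A second, dimmer probe set of Irf9 gave 0.065 in Dahl S (adjusted p = 0.87, limma) and -0.089 in S.SHR(2) (adjusted p = 0.80). The rise of Irf9 thus rests on 1 of its probe sets. Irf7 was higher in S.SHR(2) without Dahl S replicates 1 or 3 or S.SHR(2) replicate 7 (0.53, 0.53 and 0.66, adjusted p up to 0.04) and after median centring (0.65, adjusted p = 0.019).

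Of the 15 interferon-stimulated effectors, 11 lay above 0 in Dahl S and 12 in S.SHR(2) between the third and first blocks, and fewer were called. In Dahl S 4 were called, 2 higher and 2 lower, where 22.9% of all genes were called (11.9% higher and 11% lower). In S.SHR(2) it was 6, 4 higher and 2 lower, against 28.7% (15.7% higher and 13% lower). The Dahl S count was thus near the share of all genes. Between the third and first blocks Gbp2 and Mx1 were higher in both strains, Rsad2 and Bst2 lower in both, Ifi27 and Oasl higher in S.SHR(2), and the other 9 (Mx2, Isg15, Ifit2, Ifit3, Oas1a, Usp18, Ifih1, Ifi44 and Cxcl10) were called in neither. Their log2 differences had a median of 0.18 (Dahl S) and 0.33 (S.SHR(2)), where all genes had 0.02. The S.SHR(2) count depended on the weight given to each rat: with array weights 10 of the 15 were called, 8 of them higher, where equal weights called 6. Those gained were Isg15 at 1.02 (adjusted p = 0.00091; 0.63 with equal weights), Oas1a at 0.88 (adjusted p = 0.0009; 0.50), Usp18 at 0.62 (adjusted p = 0.031; 0.32) and Ifit3 at 0.55 (adjusted p = 0.033; 0.39). In Dahl S array weights added Ifih1 at 0.64 (adjusted p = 0.037; 0.56), and it was also called without Dahl S replicate 3 at 0.82 (adjusted p = 0.022). Isg15 in S.SHR(2) was called without S.SHR(2) replicates 3 or 9 as well (0.93 and 0.80, adjusted p of 0.0063 and 0.034), and Oas1a without S.SHR(2) replicates 1 or 9 (0.68 and 0.69, adjusted p of 0.039 and 0.037). Array weights raised the count of members called in every comparison between blocks within a strain. The share of all genes called with array weights is not given here. Across the 18 rats the 105 pairs of effectors correlated at -0.79 to 0.89 with a median of 0.39.

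Rsad2, the antiviral enzyme viperin, had the smallest adjusted p of the 35 genes in S.SHR(2) and the next smallest after RT1-Da in Dahl S. The intensity of Rsad2 in Dahl S rats was 326, 402 and 267 in the first block, 230.5, 241 and 214 in the second and 149.6, 134 and 140.3 in the third. In S.SHR(2) rats it was 408, 426 and 362, then 209, 171 and 159, then 136, 111 and 113. Each block lay wholly below the one before it in both strains. The log2 difference between the third and first blocks was -1.17 ± 0.14 (SE; adjusted p = 2.2e-06) in Dahl S and -1.58 ± 0.14 (adjusted p = 3.2e-08) in S.SHR(2), or 2.25-fold and 2.99-fold lower. It was -0.50 (adjusted p = 0.02) and -1.08 (adjusted p = 1.7e-05) between the second and first blocks; the Dahl S call there was lost without Dahl S replicates 1, 2 or 6 (adjusted p of 0.054, 0.13 and 0.075).

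Bst2, tetherin, which holds budding viruses at the cell surface, was not called between the first 2 blocks and was lower in the third. For Bst2, Dahl S intensities were 264, 253 and 238 in the first block, 255, 248 and 224 in the second and 124, 109 and 131 in the third. The S.SHR(2) rats gave 232, 205 and 227, then 208, 209.9 and 289.5, then 89.6, 141 and 87.3. All 6 rats of the third block lay below all 12 others. The log2 difference was -1.0 ± 0.15 (SE; adjusted p = 5.1e-05) in Dahl S and -0.95 ± 0.15 (adjusted p = 8.9e-05) in S.SHR(2) against the first block, and -0.94 and -1.03 against the second.

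Gbp2, an interferon gamma-induced guanylate-binding protein that acts on vacuoles of intracellular microbes, was higher in the third block. Dahl S rats had Gbp2 intensities of 93.3, 104 and 103 in the first block, 80.8, 83.1 and 99.6 in the second and 196, 192 and 160.1 in the third. S.SHR(2) values by block were 58.9, 60.9 and 86.2, then 91.2, 77.6 and 84.9, then 127, 149 and 119. The third block lay above all other rats, and within it the 3 Dahl S rats lay above the 3 S.SHR(2) rats. The log2 difference between the third and first blocks was 0.77 ± 0.14 (SE; adjusted p = 0.00029) in Dahl S and 0.84 ± 0.14 (adjusted p = 0.00011) in S.SHR(2).

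Mx1, a dynamin-like antiviral GTPase, was higher in the third than in the first block in both strains. The intensity of Mx1 in Dahl S rats was 56.3, 63.2 and 76.5 in the first block, 115, 93.5 and 94.4 in the second and 139.9, 83.3 and 102 in the third. The same blocks of S.SHR(2) held 44.7, 33.1 and 47.7, then 118, 66.9 and 103, then 95.3, 123 and 91.2. The second block overlapped the third. Its log2 difference between the second and first blocks was 0.57 (adjusted p = 0.059) in Dahl S and 0.97 (adjusted p = 0.002) in S.SHR(2), and between the third and first 0.60 ± 0.19 (SE; adjusted p = 0.027) in Dahl S and 1.11 ± 0.19 (adjusted p = 0.0002) in S.SHR(2). The Dahl S call was lost without Dahl S replicates 1, 2, 7 or 9 (adjusted p up to 0.16).

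Ifi27, a mitochondrial protein strongly induced by type I interferon, is given because 1 rat decided its Dahl S value; it and the 3 genes named with it in the next sentences were picked out after their values were seen. For Ifi27, Dahl S intensities were 1182, 989 and 2691 in the first block, 1213, 886 and 1161 in the second and 1726, 1655 and 1613 in the third. In S.SHR(2) rats it was 603, 712 and 796, then 941, 881 and 1197, then 1347, 1816 and 1412. Dahl S replicate 3 stood far above its block. The log2 difference between the third and first blocks was 0.23 ± 0.23 (SE; adjusted p = 0.52) in Dahl S and 1.04 ± 0.23 (adjusted p = 0.0023) in S.SHR(2). Without Dahl S replicate 3 the Dahl S value was 0.66 (adjusted p = 0.0056), and without Dahl S replicate 2 it was -0.040. The same rat was high for Irf7, at 393 against 182 and 219 in the other Dahl S rats of the block, for Irf9, at 183 against 99.3 and 102, and for Ifi44, at 154 against 71.6 and 84.3.

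Of the 20 transcription factors and effectors, 9 had their highest value of the first block in Dahl S replicate 3, as did 13.5% of all genes tested, and 10 had their lowest in S.SHR(2) replicate 2, as did 10.9% of all genes. In the second block 9 were lowest in S.SHR(2) replicate 5 (13.5% of all genes) and 7 highest in Dahl S replicate 4 (14.8%). In the third block 11 of the 20 were highest in Dahl S replicate 7 (14.9% of all genes), and S.SHR(2) replicates 7 and 9 held the lowest value of 8 and 9 of them (14.4% and 16% of all genes). These counts compare rats on values that were normalized together.

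The remaining effectors are given by range. Oasl gave 0.28 ± 0.16 (SE; adjusted p = 0.24) in Dahl S and 0.49 ± 0.16 (adjusted p = 0.028) in S.SHR(2), the call being lost without S.SHR(2) replicates 1, 2, 8 or 9 (adjusted p up to 0.11). Isg15, the ubiquitin-like modifier, lay at 88.7 to 128 in Dahl S and 38.5 to 156 in S.SHR(2), where replicate 2 was the lowest rat. Usp18, which removes Isg15 from proteins, lay at 43.5 to 83.4 and 22.8 to 73.6. The RNA sensor gene Ifih1 lay at 20.3 to 51.9 and 18 to 48.5, and the oligoadenylate synthetase gene Oas1a at 33.4 to 68.2 and 20.8 to 60.4. Cxcl10, a chemokine that draws activated T cells, lay at 48.5 to 84.8 and 42.8 to 112; its only call, the third against the second block in S.SHR(2), was 0.51 with an adjusted p of 0.048, and it was lost in 17 of 27 settings, among them the values as deposited. With equal weights Mx2, Ifit2, Ifit3 and Ifi44 were called in no comparison.

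**Figure D5:**
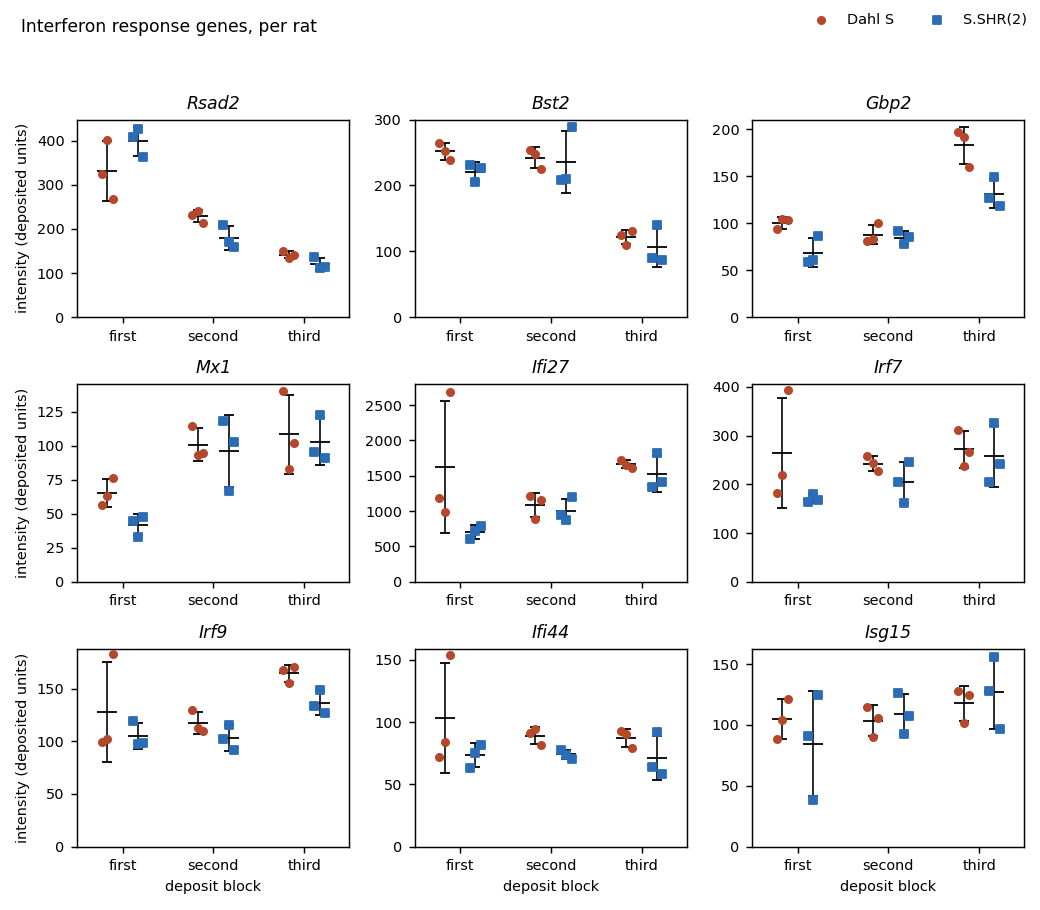
Deposited intensity of 9 interferon response genes in each rat, by deposit block, with Dahl S as circles and S.SHR(2) as squares; bars show the mean and SD of 3 rats. Rsad2 is lower in each successive block and Bst2 lower in the third, while Ifi27, Irf7, Irf9 and Ifi44 have 1 high Dahl S rat in the first block (2691 for Ifi27).

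The interferon-stimulated response element, the site of the Stat2 and Irf9 complex and of interferon regulatory factors, was searched as GAAA, any 2 letters and GAAA again, on both strands of the same 250 bases. It was found in 16 of the 30 members with a promoter in the table and in 3.41% of all 33469 promoters. Windows are shown for genes that were higher (B2m, Psmb10, Gbp2), lower (Bst2, Rsad2) or differed in 1 strain (Ifi27), with the matching letters in capitals; in Gbp2 and Rsad2 the match reads on the other strand, and in Bst2 it is a pair of overlapping matches.
B2m (chr3:129549160-129549209, plus strand): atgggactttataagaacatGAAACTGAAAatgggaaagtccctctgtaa
Psmb10 (chr19:50743293-50743329, minus strand): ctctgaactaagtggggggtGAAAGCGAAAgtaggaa
Gbp2 (chr2:234005676-234005725, plus strand): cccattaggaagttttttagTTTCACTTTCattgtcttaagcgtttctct
Ifi27 (chr6:128355208-128355257, plus strand): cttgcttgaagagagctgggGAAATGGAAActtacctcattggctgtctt
Bst2 (chr16:18255063-18255112, minus strand): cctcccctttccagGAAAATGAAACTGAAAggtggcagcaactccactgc
Rsad2 (chr6:48788238-48788287, minus strand): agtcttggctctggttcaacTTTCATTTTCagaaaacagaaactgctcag
Genes that were higher in the third block and genes that were lower both held the letters, as did 9 members called in neither strain between these blocks (Tap2, Tapbp, Psme2, Irf7, Ifit3, Oas1a, Ifih1, Ifi44 and Cxcl10). The interferon gamma-activated site TTCNNNGAA was found in 6 of the 30 (Psmb8, Irf1, Irf8, Irf9, Oas1a and Bst2) and in 7.67% of all promoters; in Bst2 it overlaps the response element. The promoters of Ciita, Mx2, Usp18, Ifit2 and Isg15 were not used here.

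Between neighbouring blocks fewer genes were called. From the first to the second block 4 of the 35 differed in Dahl S, 3 higher and Rsad2 lower, against 10.9% of all genes (5.78% higher and 5.11% lower). In S.SHR(2) it was 10 of the 35, 9 higher (RT1-Da, RT1-Ba, RT1-Bb, RT1-Db1, Cd74, B2m, Tap2, Psmb8 and Mx1) and Rsad2 lower, against 11.6% (5.68% higher and 5.91% lower). From the second to the third block 13 differed in Dahl S, 11 higher and 2 lower, against 18.3% (9.6% higher and 8.75% lower), and 8 in S.SHR(2), 6 higher and 2 lower, against 15% (8.74% higher and 6.3% lower). No member passed the test of strain by block for these steps, and 7 had an unadjusted p under 0.05 for the step from the first to the second block and 0 for that from the second to the third. The Dahl S count for the first step was 2 without Dahl S replicate 2 and 1 without Dahl S replicate 6. With arrays centred on their medians the S.SHR(2) count for the second step was 14, of which 12 were higher. That centring also moved the median of all genes for this step, from 0.04 to 0.15. The share of all genes called is not given for the counts with a rat left out or with centring.

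The strains were then compared. No member differed between S.SHR(2) and Dahl S over all rats at an adjusted p under 0.05 in limma, where 0.572% of all genes did; 6 had an unadjusted p under 0.05. The log2 difference, S.SHR(2) minus Dahl S, was below 0 for 29 of the 35 genes, with a median of -0.11 where all genes had 0.02, and over the members the 95% intervals reached from -0.76 to 0.35. No member separated the 9 rats of each strain without overlap, as 0.0286% of all genes did upward and 0.0572% downward. The 6 class II genes lay between -0.05 and 0.05, and with arrays centred on their medians, or values left as deposited, the class II median changed from -0.01 to 0.07 or 0.03.

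The smallest p belonged to Gbp2, which lies on chromosome 2 by the RefSeq annotation, at -0.29 ± 0.08 (adjusted p = 0.11, limma). Within blocks it was -0.45, -0.05 and -0.38. Without S.SHR(2) replicate 3 the value over all rats was -0.34 (adjusted p = 0.040) and with estimated array weights -0.33 (adjusted p = 0.013). Ifi27 had the largest difference, -0.48 ± 0.14 (adjusted p = 0.14), and within blocks -1.07, -0.10 and -0.26. Without Dahl S replicate 3 it was -0.34 over all rats and -0.64 in the first block, and without Dahl S replicate 2 it was -0.57 (adjusted p = 0.042) and -1.34 (adjusted p = 0.017). Ifi44, the other member on chromosome 2, gave -0.24 ± 0.11 (adjusted p = 0.43), and its first-block value of -0.33 was -0.037 without Dahl S replicate 3.

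Within each block no member was called between strains, where 0.0859%, 0.0668% and 0.391% of all genes were called in the first, the second and the third; the members with an unadjusted p under 0.05 numbered 10, 1 and 1. In the first block 10 members were lower in all 3 S.SHR(2) rats than in all 3 Dahl S rats (Tap2, Psmb8, Psmb9, Psmb10, Irf7, Irf8, Ifi27, Gbp2, Mx1 and Bst2), against 4.46% of all genes, and Stat2 was higher, against 6.33%. In the second block 3 were lower (Oas1a, Rsad2 and Ifi44; 4.66% of all genes) and 4 class II genes higher (RT1-Da, RT1-Bb, RT1-Db1 and Cd74; 4.3%). In the third 6 were lower (Ciita, Irf9, Stat2, Gbp2, Oasl and Ifih1, against 9.93%) and 0 higher (11.9%). Second probe sets of Ciita, Irf9 and Stat2 lay above 0 between strains over all rats (0.084, 0.083 and 0.047), where those used lay below. No member but Gbp2 separated the strains in the same direction in more than 1 block.

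Of the members, 9 lie on chromosome 20, where the class I and class II region is found (RT1-Da, RT1-Ba, RT1-Bb, RT1-Db1, Tap1, Tap2, Tapbp, Psmb8 and Psmb9). There the 4 class II chain genes, Tap1, Psmb8 and Psmb9 were higher in the third than in the first block in both strains, and Tap2 and Tapbp were called in neither.

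A wider list of the same pathways held 93 genes, of which 73 were on the array and 61 were tested. Between the third and first blocks 17 were higher and 4 lower in Dahl S, and 21 higher and 7 lower in S.SHR(2), with medians of 0.23 and 0.23 (all genes 0.02 in both). Over all genes 11.9% were called higher and 11% lower in Dahl S, and 15.7% and 13% in S.SHR(2). Ctss, the cathepsin that trims the invariant chain and is also in the macrophage list, differed by 1.32 and 1.27. The chemokine gene Cxcl11 was at 1.08 and 0.68, the adhesion genes Icam1 at 1.11 and 0.74 and Vcam1 at 0.77 and 0.52, and Parp9 at 0.82 and 0.70, all called. Lower in both strains were Pdia3, a disulfide isomerase of the class I loading complex, at -0.93 and -0.96, the class I gene RT1-T24-4 at -0.74 and -0.73, and Ifnar2, a chain of the type I interferon receptor, at -0.36 and -1.08.

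The genes outside the list whose pattern over the 18 rats was most like the mean of the class II genes were Ube2b, Cxcl16 and Slc35b4, with Pearson correlations of 0.95 each. For the mean of the effectors they were Akap17a (0.74), Slfn2 (0.73) and Ifgga2l1 (0.73). These are descriptions over rats that share arrays and blocks.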

How the data were processed

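RNA of 18 whole rat kidneys, 1 array each, was hybridised to the Affymetrix Rat Genome 230 2.0 array, per the labels' protocols. The deposited values are linear signal intensities, 1 per probe set, which the authors had scaled to a common trimmed mean, as the values show; the software used is not stated in the labels. Symbols came from the platform annotation, updated through RefSeq (20826 probe sets named 1 gene and 436 several, which were not used).

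Log2(value + 16) was quantile normalized, the 40% dimmest of 31042 probe sets were left out, and the brightest probe set of each gene was kept. A model of 6 groups (strain by deposit block) was fitted with limma 3.58.1 in R 4.3.3 (lmFit, eBayes with an intensity trend; statmod 1.5.0), two-sided, with Benjamini-Hochberg adjustment over 10483 genes at 0.05. The fit was tested on simulated data. P-values rest on the spread between rats within a strain and block, pooled over the 6 groups. Differences shared by a whole block are not part of that spread, and the number of arrays limits the precision. Values for every rat are given for the 14 members of smallest adjusted p and at least 3 members of each role; genes of the wider list were the up to 4 of smallest p per comparison. The members and lists were chosen with earlier results of these data known. No rats were paired. Alternatives were the scaling, the pseudocount, the filter, the trend, array weights, the mean over probe sets, strain alone, and each rat left out.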

Additional observations from a re-analysis of the deposited data

Results flagged for a closer look

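In 5 of 70 sets of 9 rats, each 1 gene in 1 strain, the highest or lowest rat stood apart from the nearest other by more than Dixon's test allows; chance marks about 1 such set in 20. Values are log2 after normalization. Isg15 in S.SHR(2) replicate 2 was 5.71, with the next lowest rat at 6.77. Oas1a in the same rat was 5.12, with the next lowest at 5.73. Ifi44 in Dahl S replicate 3 was 7.395, with the next highest at 6.79. Oasl in Dahl S replicate 1 was 6.27, with the next lowest at 6.62. Psme2 in Dahl S replicate 9 was 9.54, with the next highest at 9.30. The 9 rats of a strain span 3 deposit blocks, and the part of the blocks in these gaps was not tested.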

How the results depend on the processing

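Between the third and first deposit blocks, 17 to 20 members were called in Dahl S (18 as reported) and 19 to 25 in S.SHR(2) (19) over the settings other than leaving out a rat. With each rat left out in turn it was 15 to 20 and 18 to 21. The share of all genes called is not given for these settings. Over all rats, 2 members differed between strains with estimated array weights (Ifi27 and Gbp2, both lower in S.SHR(2)), and 0 to 1 with a rat left out: Ifi27 without Dahl S replicate 2 and Gbp2 without S.SHR(2) replicate 3. Within the first block it was 0 to 1 with a rat left out (Ifi27 without Dahl S replicate 2), and within the third 2 with array weights (Irf1 at -0.37 and Gbp2 at -0.41). For the second against the first block in Dahl S, array weights gave 9 calls and leaving out a rat 1 to 6; for the third against the second in S.SHR(2), median centring gave 14 and leaving out a rat 6 to 10. The Dahl S difference of Ifi27 between the third and first blocks turned to -0.040 without Dahl S replicate 2 and was 0.66 without Dahl S replicate 3. Other values that turned were not called in the reported fit or after turning. With the mean over probe sets these were Ciita (-0.056), Stat2 (0.23) and Ifit2 (0.11) in S.SHR(2) and Ifit2 (0.0060) in Dahl S, all between the third and first blocks. In the same comparison array weights turned Oas1a in Dahl S (-0.037) and Ifi44 in S.SHR(2) (-0.082), median centring Stat2 in S.SHR(2) (0.019), values as deposited Ifi44 in S.SHR(2) (-0.053), and leaving out the 2 arrays of highest Gapdh ratio Ifi44 (-0.058) and Cxcl10 (-0.061) in S.SHR(2). Psmb9 in Dahl S between the second and first blocks turned with array weights (0.052) and without those 2 arrays (0.070). With each rat left out, the Dahl S values between the third and first blocks spanned -0.0012 to 0.19 for Tap2, -0.24 to 0.099 for Tapbp, -0.13 to 0.39 for Irf7, -0.10 to 0.19 for Oas1a, -0.34 to 0.14 for Ifi44 and -0.023 to 0.10 for Cxcl10. Those in S.SHR(2) spanned -0.13 to 0.19 for Psme2, -0.099 to 0.0014 for Stat2, -0.023 to 0.57 for Usp18, -0.15 to 0.13 for Ifi44 and -0.061 to 0.34 for Cxcl10. Psmb9 in Dahl S between the second and first blocks spanned -0.17 to 0.071, and the strain difference of Gbp2 in the second block -0.089 to 0.021. Median centring moved the median of all genes to 0.12 in S.SHR(2) between the third and first blocks, 0.15 between the third and second, and 0.13 between strains in the third block. Leaving out the third block, or the 2 arrays of highest Gapdh ratio, was added after seeing the data; the latter gave 19 and 19 calls between the third and first blocks. These arrays, S.SHR(2) replicate 1 and Dahl S replicate 5, lie in the first and second blocks, so leaving them out does not address the third block. The causes were not tested.

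Each group of strain and block held 3 rats, and deposit block, age and array run cannot be told apart. No paired analysis was possible because replicate numbers follow the order of deposit and pair no rats.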
